A study of Mus musculus with 6 samples.

Results

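The inflammatory CC chemokine ligands were examined in 6 RNA libraries of bone marrow-derived macrophages (BMDMs) of the mouse, grown together with ID8, a murine line of ovarian cancer cells. A total of 10 genes were taken by their symbols from the 54532 genes of the deposited table: Ccl2, Ccl7, Ccl12, Ccl8, Ccl3, Ccl4, Ccl5, Ccl6, Ccl9 and Ccl24. In 3 libraries (the cisplatin group) ID8 had been exposed beforehand to 40 µM cisplatin, which forms platinum crosslinks in DNA, and in 3 libraries (the PBS group) to phosphate-buffered saline. Per the methods, the marrow cells came from C57BL/6 mice aged 6 to 8 weeks and were called monocytes there. They were seeded in RPMI medium with serum, and no growth factor for macrophages was named. All 6 libraries therefore share the co-culture with ID8, and no library of BMDMs or of ID8 cells alone was analysed here. Nothing in the labels said whether the replicates were separate cultures or animals, so the p-values measure the spread between these libraries, which may be technical.

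CC chemokines are small secreted proteins, named for the adjacent cysteines near their amino end, that bind G protein-coupled receptors on leukocytes and guide their migration. The inflammatory members are induced in macrophages and in many other cells by microbial products and cytokines, largely through NF-κB and interferon regulatory factors (IRFs). In tumours they draw in monocytes, granulocytes and T cells, and tumour cells can make several of them as well.

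Ccl6, Ccl9 and Ccl12 were 2.62 to 5.82 times higher in mean level when the ID8 cells had been pretreated with cisplatin, and Ccl5 was 3.81 times higher with PBS. Ccl3 and Ccl2, which led in both groups, differed by less than the fold change threshold. Levels are given in FPKM, reads per kilobase of gene scaled to the size of the library, so that they can be compared between genes. Of the 10 ligands, 9 reached 1 FPKM in at least 3 libraries and were tested, among 13441 genes in all. Genes were called at a limma adjusted p under 0.05 together with a log2 fold change of at least 1 on the log2(FPKM + 1) scale. By this rule 3 ligands were higher with cisplatin, against 4.67% of all tested genes, and 1 was lower, against 11.3%. Calls in either direction thus made up 4 of 9 ligands and 15.9% of all tested genes. By the adjusted p alone, 4 ligands were higher (32.9% of all tested genes) and 3 lower (35.1%), where 68% of all tested genes passed in either direction. The remaining 5 tested ligands were not called by the full rule. The median log2 fold change of the 9 was 0.094, beside -0.0011 over all tested genes. The groups did not overlap for 8 of the 9, as for 72.4% of all tested genes.

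**Figure D1:**
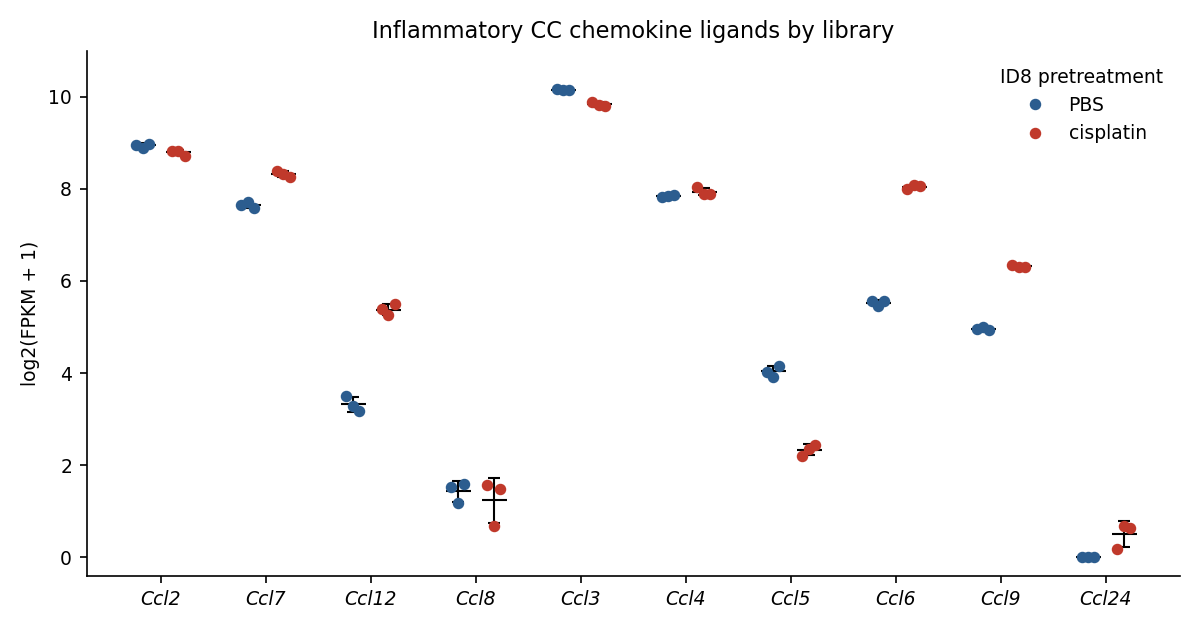
Level of each ligand as log2(FPKM + 1) in the 3 PBS libraries (blue) and the 3 cisplatin libraries (red); black marks give the mean and SD of each group. The points of Ccl6, Ccl9, Ccl12 and Ccl5 stand well apart between the groups, while those of Ccl8 overlap and Ccl24 is listed at 0 in the PBS libraries.

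Promoter windows from RefSeq (GRCm38.p6), from 250 bases before to 50 bases after the gene start, were found for 5 of the 10 ligands: Ccl12, Ccl8, Ccl3, Ccl6 and Ccl9. No entry was found for Ccl2, Ccl4, Ccl5, Ccl7 and Ccl24. The windows of the 3 ligands called higher are shown together with that of Ccl8, a close relative and neighbour of Ccl12 that was not called. They are written 5′ to 3′ on the strand of the gene, and capitals mark matches to the motifs searched on both strands. These motifs were the κB consensus, the IRF core AANNGAAA and the GAS site TTCNNNGAA, which STAT factors bind.
Ccl6 (chr11:83593038-83593337, minus strand): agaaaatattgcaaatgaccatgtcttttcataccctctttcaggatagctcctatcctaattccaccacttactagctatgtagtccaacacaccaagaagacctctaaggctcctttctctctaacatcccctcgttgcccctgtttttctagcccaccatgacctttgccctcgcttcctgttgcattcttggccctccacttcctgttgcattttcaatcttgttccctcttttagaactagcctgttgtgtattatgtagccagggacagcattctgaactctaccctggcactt
Ccl9 (chr11:83578587-83578886, minus strand): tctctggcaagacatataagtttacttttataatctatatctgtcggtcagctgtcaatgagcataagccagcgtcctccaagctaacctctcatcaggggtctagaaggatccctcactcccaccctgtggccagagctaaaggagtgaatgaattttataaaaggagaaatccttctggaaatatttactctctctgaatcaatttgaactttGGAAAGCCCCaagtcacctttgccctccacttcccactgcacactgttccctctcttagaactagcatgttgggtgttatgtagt
Ccl12 (chr11:82101595-82101894, plus strand): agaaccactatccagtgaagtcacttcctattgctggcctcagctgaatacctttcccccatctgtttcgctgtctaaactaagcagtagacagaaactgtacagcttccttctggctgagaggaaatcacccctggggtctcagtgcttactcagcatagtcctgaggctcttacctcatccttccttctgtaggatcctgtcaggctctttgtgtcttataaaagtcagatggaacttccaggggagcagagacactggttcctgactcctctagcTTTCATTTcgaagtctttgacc
Ccl8 (chr11:82114935-82115234, plus strand): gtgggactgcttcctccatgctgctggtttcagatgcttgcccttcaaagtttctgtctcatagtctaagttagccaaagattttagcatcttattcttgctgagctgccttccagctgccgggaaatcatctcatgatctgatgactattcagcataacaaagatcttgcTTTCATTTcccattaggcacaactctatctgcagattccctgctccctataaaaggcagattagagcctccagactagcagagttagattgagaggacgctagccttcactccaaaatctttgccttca

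Ccl9 held the single κB match, 35 to 26 bases upstream of its start. An IRF core was found in Ccl12 at 28 to 35 bases downstream of the start and in Ccl8 at 79 to 72 bases upstream, with the same letters in both. Ccl3, whose window is not shown, held an IRF core at 219 to 212 bases upstream, and no motif was found in the window of Ccl6. Thus 1 of 5 windows held the κB consensus, 3 held an IRF core and 0 held a GAS site. Of all 32851 promoter windows, 8.46% held the κB consensus, 23.9% an IRF core and 8.30% a GAS site. Matches are descriptions of the letters and not evidence of binding. Among the 10 possible pairs of windows, those of Ccl6 and Ccl9 shared the longest similar stretch without gaps, 40 bases of which 36 were identical. It lay at 25 bases upstream to 14 bases downstream of the start in Ccl6, and at 9 to 48 bases downstream in Ccl9. The best stretch of Ccl12 and Ccl8 was 27 bases long with 21 identical, and it lay at 147 to 121 bases upstream in both genes.

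The ligands that act mainly on monocytes were examined first. Ccl2, Ccl7 and Ccl12 encode monocyte chemoattractant proteins that bind Ccr2, the receptor by which monocytes leave the marrow, and Ccl8 encodes a relative that in the mouse acts through Ccr8. Of these 4 genes only Ccl12 was called. Ccl12 (ENSMUSG00000035352, chromosome 11, 82101845 to 82103400, plus strand) was at 40.8, 37.1 and 44.3 FPKM in the cisplatin libraries and at 10.3, 8.73 and 8.05 FPKM in the PBS libraries. Every cisplatin library thus lay above every PBS library. Its mean was 40.7 ± 3.62 against 9.03 ± 1.16 FPKM (SD, 3 libraries each), a 4.51-fold difference. On the log2(FPKM + 1) scale it rose by 2.06 (SE 0.098, 95% confidence interval 1.83 to 2.29, limma adjusted p = 2.93e-06). The values rested on 327 to 393 reads in the cisplatin libraries and on 67 to 98 in the PBS libraries.

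Ccl7 (ENSMUSG00000035373, chromosome 11, 82045712 to 82047525, plus strand) was far more abundant and differed by less. It was at 335, 319.8 and 306 FPKM with cisplatin and at 200.8, 208 and 192 FPKM with PBS. The groups did not overlap, and the means of 320.5 ± 14.7 and 200.3 ± 8.24 FPKM (SD, 3 libraries each) were 1.60-fold apart. The log2 fold change of 0.68 (SE 0.048, interval 0.56 to 0.79, limma adjusted p = 1.96e-05) stayed below the threshold of 1. Its sign depended on the scaling of the libraries, and it was -0.32 when they were scaled by 4 Y-linked genes.

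Ccl2 (ENSMUSG00000035385, chromosome 11, 82035571 to 82037453, plus strand), the main attractant of monocytes, differed little between the groups. It was at 455, 449.6 and 421 FPKM in the cisplatin libraries and at 498, 475 and 506 FPKM in the PBS libraries, with no overlap. Its log2 fold change of -0.16 (SE 0.043, interval -0.26 to -0.054, limma adjusted p = 0.0154) was far from the fold change threshold. It was -0.022 (limma adjusted p = 0.597) after quantile normalisation and -0.070 (limma adjusted p = 0.196) when scaled by total reads. The limma adjusted p was 0.0525, 0.0505 and 0.0523 without PBS replicate 1, PBS replicate 3 and cisplatin replicate 3. Scaled by Y-linked genes or by macrophage markers it was -1.15 and -1.10, and called lower. Ccl2 had 7921 to 10024 reads per library, so counting error was small. Ccl8 (ENSMUSG00000009185, chromosome 11, 82115185 to 82116799, plus strand) was barely detected. It was at 1.96, 0.596 and 1.78 FPKM with cisplatin and at 1.88, 1.26 and 2.02 FPKM with PBS, from 5 to 17 reads. The groups overlapped, and the log2 fold change was -0.19 (SE 0.25, limma adjusted p = 0.52). Its interval from -0.79 to 0.41 leaves a difference of moderate size undetectable at this depth, and without cisplatin replicate 2 the value was 0.087.

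Within a library, the ratio of a pair of these relatives does not depend on the scaling between libraries, apart from the pseudocount. Ccl2 was 48.3, 54.4 and 62.8 times Ccl12 in the PBS libraries and 11.1, 12.1 and 9.51 times Ccl12 in the cisplatin libraries. Ccl2 was likewise 2.48, 2.28 and 2.63 times Ccl7 with PBS, and 1.36, 1.41 and 1.38 times Ccl7 with cisplatin. Both ratios were lower in every cisplatin library than in any PBS library. The log2 ratio of Ccl2 to Ccl12 (of FPKM + 1) went from 5.63 ± 0.17 with PBS to 3.41 ± 0.17 with cisplatin (SD, 3 libraries each), and that of Ccl2 to Ccl7 went from 1.29 ± 0.10 to 0.46 ± 0.026. The ratio of Ccl7 to Ccl8 ranged from 95.02 to 165.8 with PBS and from 171 to 537 with cisplatin, where the highest value came from the library with 5 reads on Ccl8. In an exact two-sided permutation test over libraries each of the 5 pairs compared had p = 0.1 (adjusted p = 0.1 over the 5 pairs), the smallest value that 3 against 3 libraries allow.

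Ccl3 and Ccl4 encode macrophage inflammatory proteins, which attract monocytes and T cells, and Ccl3 binds Ccr1. Neither gene was called, although Ccl3 was the most abundant of the 10 ligands in every library. Ccl3 (ENSMUSG00000000982, chromosome 11, 83647844 to 83649355, minus strand) was at 946, 906 and 885 FPKM with cisplatin and at 1147, 1125 and 1138 FPKM with PBS. All 3 cisplatin libraries lay below the PBS libraries, by 0.32 on the log2 scale (log2 fold change -0.32, SE 0.036, interval -0.40 to -0.23, limma adjusted p = 0.000228). Ccl4 (ENSMUSG00000018930, chromosome 11, 83662584 to 83664683, plus strand) was at 261, 236 and 237 FPKM with cisplatin and at 224, 228 and 234 FPKM with PBS. The libraries of Ccl4 did not overlap, but the difference did not pass the test (log2 fold change 0.094, SE 0.047, interval -0.018 to 0.21, limma adjusted p = 0.117). Scaled by Y-linked genes or by macrophage markers, Ccl3 was called lower (-1.315 and -1.26) and Ccl4 turned to -0.90 and -0.85. Ccl4 passed the adjusted p, but not the fold change threshold, when scaled by total reads (0.18, limma adjusted p = 0.0101) and with voom (0.18, limma adjusted p = 0.0028). Ccl3 was 5.11, 4.93 and 4.86 times Ccl4 with PBS, and 3.62, 3.84 and 3.73 times Ccl4 with cisplatin. This ratio was therefore lower in every cisplatin library, with log2 means of 1.90 ± 0.042 against 2.31 ± 0.037 (SD, 3 libraries each).

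Ccl5 (ENSMUSG00000035042, chromosome 11, 83525778 to 83530518, minus strand) encodes a ligand of Ccr1 and Ccr3 that attracts T cells and is induced by interferons and by NF-κB. It was the only ligand of the 9 tested that was called lower. It was at 3.61, 4.12 and 4.42 FPKM in the cisplatin libraries, from 59, 65 and 70 reads. The PBS libraries stood at 15.2, 14.2 and 16.9 FPKM, from 259, 212 and 252 reads. No cisplatin library came near the PBS range, and Ccl5 fell by 1.70 on the log2 scale (log2 fold change -1.70, SE 0.085, interval -1.91 to -1.50, limma adjusted p = 3.77e-06).

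Ccl6 and Ccl9 are rodent CC chemokines made by myeloid cells, and both signal through Ccr1. Both rose. Ccl6 (ENSMUSG00000018927, chromosome 11, 83587882 to 83593087, minus strand) had the largest rise of the 9 tested ligands. It was at 256, 269 and 264 FPKM with cisplatin, from 7823 to 7924 reads, and at 46.2, 43.1 and 46.3 FPKM with PBS, from 1205 to 1469 reads. The means of 263 ± 6.38 and 45.2 ± 1.83 FPKM (SD, 3 libraries each) were 5.82-fold apart, with a log2 fold change of 2.52 (SE 0.040, interval 2.42 to 2.61, limma adjusted p = 6.00e-08). Ccl9 (ENSMUSG00000019122, chromosome 11, 83572919 to 83578636, minus strand) was at 80.7, 78.6 and 78.1 FPKM with cisplatin and at 30.2, 30.8 and 29.4 FPKM with PBS. Its log2 fold change was 1.36 (SE 0.034, interval 1.28 to 1.44, limma adjusted p = 1.84e-07). Scaled by Y-linked genes or by macrophage markers, the value for Ccl9 was 0.385 and 0.44 and no longer called. The rise of Ccl6 exceeded that of Ccl9, and Ccl6 was 3.18, 3.42 and 3.39 times Ccl9 with cisplatin but 1.53, 1.40 and 1.57 times Ccl9 with PBS. The log2 ratio of the pair was higher by 1.15 with cisplatin, with no overlap between the groups.

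Ccl24 (ENSMUSG00000004814, chromosome 5, 135569937 to 135573049, minus strand) encodes a ligand of Ccr3 that attracts eosinophils and is known from alternatively activated macrophages. It was listed at 0.136, 0.611 and 0.561 FPKM in the cisplatin libraries, from 3, 13 and 12 reads, and at 0 in all 3 PBS libraries. These values lie below the filter, so Ccl24 was not tested.

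**Figure D2:**
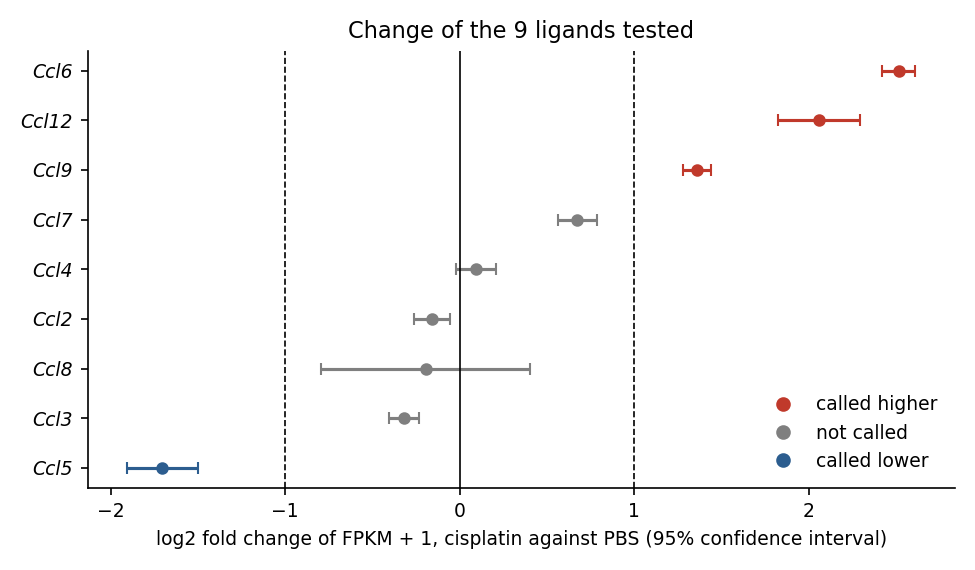
Log2 fold change (cisplatin against PBS, log2(FPKM + 1) scale) of the 9 tested ligands with 95% confidence intervals; dashed lines mark the fold change threshold of 1 in either direction. Ccl6, Ccl12 and Ccl9 lie above it, Ccl5 lies below it, and the other 5 lie between the lines.

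Apart from Ccl24, the ligand genes lie in 2 clusters on chromosome 11. Ccl2, Ccl7, Ccl12 and Ccl8 span 81.2 kb, and Ccl5, Ccl9, Ccl6, Ccl3 and Ccl4 span 138.9 kb, with 1409 kb between the clusters. Calls in opposite directions occurred within the latter cluster, where Ccl6 and Ccl9 were higher and Ccl5, the neighbour of Ccl9, was lower. In the former cluster Ccl12 alone was called. The only other gene within the Ccl2 cluster was Ccl11, named for its position after its values were seen, which was below the filter. Within the Ccl5 cluster the other genes were Rpl9-ps1 and E230016K23Rik, of which Rpl9-ps1 was tested and not called. The span of Ccl2 overlaps that of Gm17268, and the span of Ccl6 overlaps E230016K23Rik, but no ligand shared exon bases with another gene in GENCODE M21. All 10 ligands had the same coordinates there as in the deposited table.

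**Figure D3:**
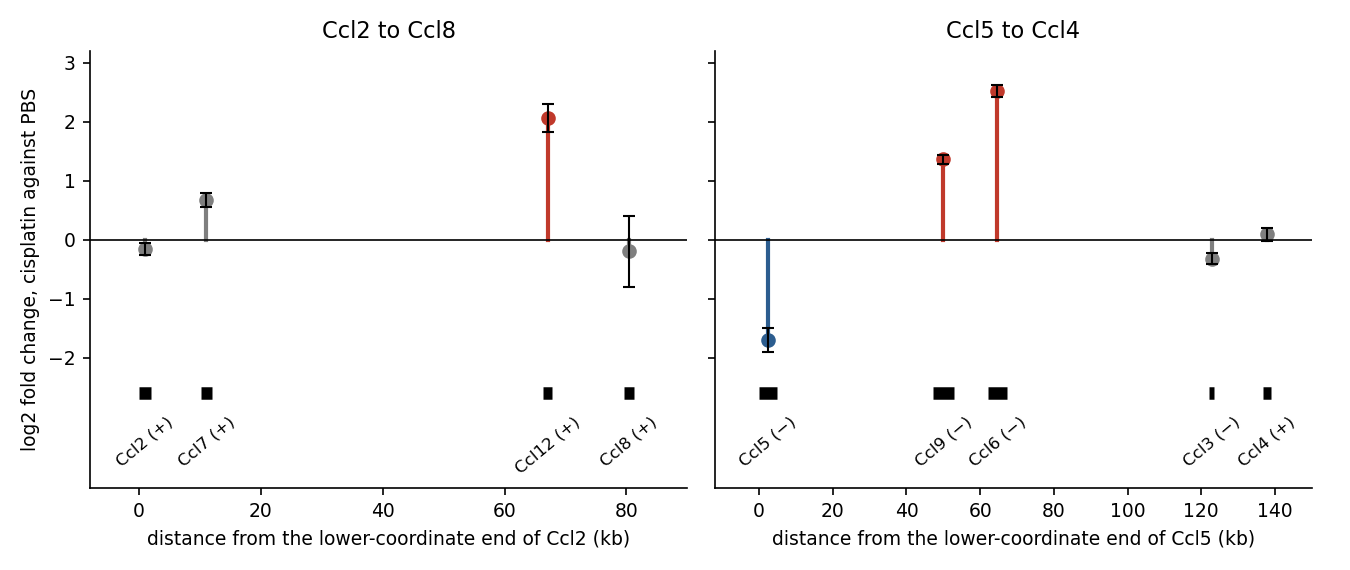
Log2 fold change with 95% confidence interval (black) of the 9 ligands on chromosome 11, drawn at their distance in kb from the lower-coordinate end of Ccl2 (left) or Ccl5 (right); red marks ligands called higher, blue lower and grey not called, and black boxes show the gene spans, with the strand in brackets. Ccl6 and Ccl9 rise next to Ccl5, which falls, and Ccl12 stands alone in the left panel.

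The summed level of the 10 ligands was 2381, 2301 and 2244 FPKM in the cisplatin libraries and 2174, 2135 and 2172 FPKM in the PBS libraries. The cisplatin libraries lay above the PBS libraries, with means of 2308 ± 68.8 and 2160.3 ± 22.0 FPKM (SD, 3 libraries each, exact two-sided permutation test, p = 0.1, the smallest possible). The direction of this difference depended on the scaling, since the means were 1633 and 3058 FPKM scaled by 4 Y-linked genes and 1663 and 2999 FPKM scaled by macrophage markers, both added with the data in view. The make-up of the sum does not depend on the scaling of the libraries. Ccl3 made up 52.6 ± 0.20% of it with PBS and 39.5 ± 0.19% with cisplatin. Together with Ccl2, it made up 75.4 ± 0.41% with PBS and 58.7 ± 0.37% with cisplatin. Ccl6, Ccl9 and Ccl12 together went from 3.91 ± 0.073% to 16.6 ± 0.69%. Ccl6 alone accounted for 11.4 ± 0.56% with cisplatin, against 2.09 ± 0.064% with PBS. Ccl4 took 10.6% in both groups. In recovered reads, which are not per length, Ccl6 took 20.03 ± 0.86% and 4.19 ± 0.12%, Ccl9 10.2 ± 0.11% and 4.74 ± 0.16%, and Ccl4 6.84 ± 0.28% and 7.80 ± 0.18%, with cisplatin and PBS in turn. The share of Ccl5 was 0.715 ± 0.059% with PBS and 0.176 ± 0.023% with cisplatin.

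**Figure D4:**
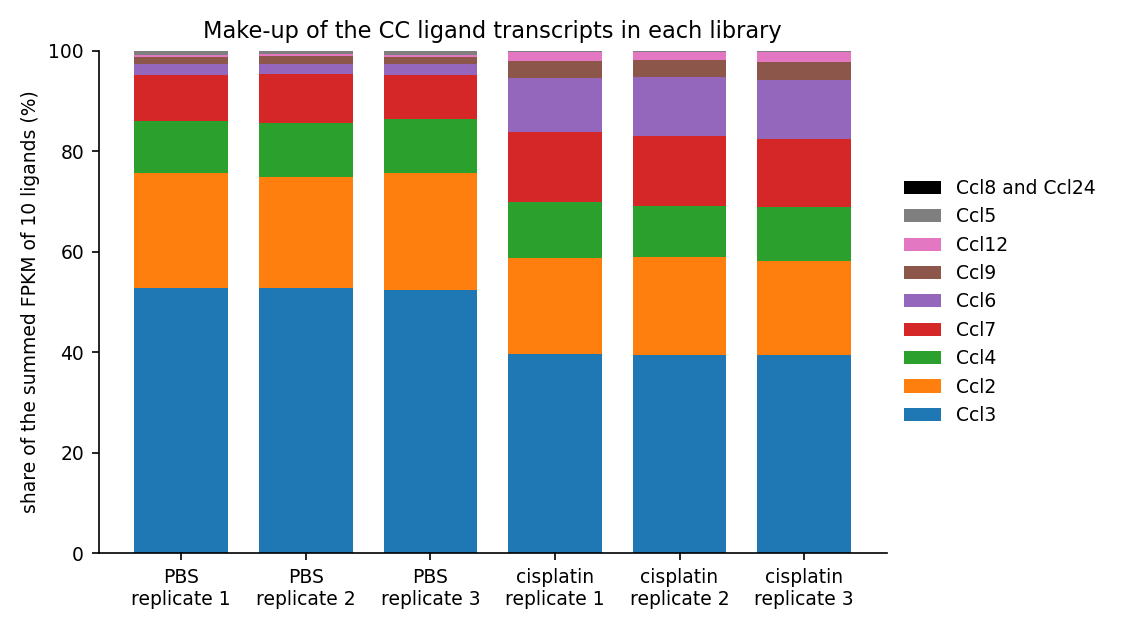
Share of each ligand in the summed FPKM of the 10 ligands, in percent, for each of the 6 libraries; each bar sums to 100%. The bands of Ccl6, Ccl9 and Ccl12 are wider in the 3 cisplatin bars, and those of Ccl3 and Ccl2 are narrower.

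With PBS the order of mean levels was Ccl3, Ccl2, Ccl4, Ccl7, Ccl6, Ccl9, Ccl5, Ccl12, Ccl8 and Ccl24, and no neighbours in this order overlapped. With cisplatin it was Ccl3, Ccl2, Ccl7, Ccl6, Ccl4, Ccl9, Ccl12, Ccl5, Ccl8 and Ccl24. Here Ccl6 and Ccl4 could not be separated, since their libraries ranged from 256 to 269 and from 236 to 261 FPKM, and neither could Ccl8 and Ccl24. Ccl12 and Ccl5 thus changed places, and Ccl4 came after Ccl7.

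The receptors of these ligands were examined in the same libraries. Ccr2, the receptor of Ccl2, Ccl7 and Ccl12, was at 8.52, 7.96 and 8.35 FPKM with cisplatin and at 1.31, 0.997 and 1.28 FPKM with PBS. It rose by 2.08 on the log2 scale (SE 0.077, limma adjusted p = 9.11e-07). Ccr1, the receptor of Ccl3, Ccl5, Ccl6 and Ccl9, was at 58.2, 51.1 and 49.4 FPKM with cisplatin and at 19.6, 20.6 and 17.8 FPKM with PBS (log2 fold change 1.40, SE 0.077, limma adjusted p = 6.02e-06). Both were thus called higher, with no overlap between the groups. Ccr3, at 1.79 ± 0.054 against 1.16 ± 0.075 FPKM (SD, 3 libraries each), was not called (log2 fold change 0.37, limma adjusted p = 0.00522). Of 15 CC receptor genes, 8 were tested, 4 were called higher and 0 lower, with a median log2 fold change of 0.99, where 4.67% and 11.3% of all tested genes were called. By the adjusted p alone, 6 of the 8 were higher and 2 lower, beside 32.9% and 35.1% of all tested genes. The other receptors called higher were Ccr9 (log2 fold change 1.69, limma adjusted p = 5.19e-06) and Ccr7 (log2 fold change 1.004, limma adjusted p = 5.74e-06), which guide cells to the gut and to lymph nodes. Scaled by Y-linked genes or by macrophage markers, Ccr2 (1.35 and 1.39) and Ccr9 (1.10 and 1.12) were still called, while Ccr1 (0.44 and 0.49) and Ccr7 (0.054 and 0.10) were not. Ccr7 also fell short without PBS replicate 2 (0.96), cisplatin replicate 1 (0.99) or cisplatin replicate 2 (0.98).

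Of the 14 other CC ligands, 5 were tested, 2 were called higher and 2 lower, and the median log2 fold change was -0.19, beside 4.67% higher and 11.3% lower over all tested genes. Ccl22 and Ccl17, ligands of Ccr4 that attract T cells, were higher with log2 fold changes of 2.55 and 1.77 (limma adjusted p = 5.96e-07 and 6.13e-05). Ccl17 rested on few reads, 29, 35 and 29 with cisplatin and 1, 3 and 5 with PBS. Ccl20, the ligand of Ccr6, and Ccl27a, a skin chemokine with several near-identical gene copies in the mouse, were lower (log2 fold changes -1.998 and -1.03, limma adjusted p = 6.75e-06 and 0.000144). Ccl20 had 15, 7 and 10 reads with cisplatin and 111, 101 and 118 with PBS. Ccl27a fell short of the threshold without PBS replicate 3 (-0.96) or cisplatin replicate 1 (-0.96). A further 5 of the 14 were listed at 0 in every library.

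Regulators known to act on the ligand genes did not all move the same way. All 24 were tested, 0 were called higher and 4 lower, with a median log2 fold change of -0.11. By the adjusted p alone, 8 were higher and 12 lower. Over all tested genes 4.67% were called higher and 11.3% lower, and 32.9% and 35.1% at the adjusted p alone, so the shares among the regulators are not a result about them. The largest falls were those of Irf7 (log2 fold change -2.59, SE 0.046, limma adjusted p = 7.06e-08) and Stat2 (log2 fold change -1.92, SE 0.040, limma adjusted p = 1.01e-07), both of the interferon response. Of 10 cytokines known to induce CC ligands, 7 were tested. None was called higher by limma, while 4 were higher at the adjusted p alone. Csf1, the growth factor of macrophages, was the 1 called lower, from 37.6 ± 0.52 to 17.2 ± 1.06 FPKM (SD, 3 libraries each, log2 fold change -1.08, limma adjusted p = 2.52e-06).

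Markers of the cells that can contribute RNA differed between the groups, and in bulk RNA fewer cells of a type and less RNA per cell cannot be told apart. The 2 genes named for each list have its highest mean over all 6 libraries, and counts stand beside 4.67% of all tested genes called higher and 11.3% lower. All 10 macrophage markers were tested and 5 were called higher, and their summed level was 4449 to 4617 FPKM with cisplatin and 1757 to 1780 FPKM with PBS (Lyz2 and Tyrobp). Lyz2 alone made up most of this sum, at 3403 to 3551 FPKM with cisplatin and 1153 to 1173 FPKM with PBS. Of 11 monocyte and granulocyte markers 7 were called higher, with summed levels of 8454 to 8721 against 4694 to 4848 FPKM (S100a9 and S100a8). S100a9 and S100a8 made up most of this sum, and neither was among the 7 called (log2 fold changes 0.75 and 0.86). All 4 B cell markers were called higher (432 to 442 against 188 to 195 FPKM summed, Cd79b and Cd79a). The libraries labelled BMDM thus held transcripts of granulocyte and B cell marker genes beside those of macrophages.

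Most tested ID8 and mesothelial markers went the other way. Of 16 listed, 10 were tested, 7 were called lower and 0 higher, and their sum was 237 to 259 FPKM with cisplatin and 1289 to 1391 FPKM with PBS (Krt19 and Sparc). At the adjusted p alone 9 were lower and 1 higher, beside 35.1% and 32.9% of all tested genes. The 1 higher was Cdh1, at 5.41 ± 0.53 FPKM with cisplatin and 3.24 ± 0.52 FPKM with PBS (SD, 3 libraries each, log2 fold change 0.60, limma adjusted p = 0.00238). Dendritic cell markers (Siglech and Itgax) had 2 of 4 tested genes called higher (16.2 to 16.6 against 5.84 to 5.97 FPKM summed). These were Flt3 and Siglech, while Itgax was not called (log2 fold change 0.76). At the adjusted p alone 3 were higher and 1, Zbtb46, was lower (log2 fold change -0.69, limma adjusted p = 0.00039). No T and NK cell marker of the 5 tested was called by limma (16.7 to 18.6 against 12.8 to 15.1 FPKM summed, Nkg7 and Trbc2), while 3 were higher and 1 lower at the adjusted p alone, which 68% of all tested genes passed. Of 6 tested markers of mast cells, basophils and eosinophils, 3 were called higher and 1 lower (178 to 191 against 120.1 to 124 FPKM summed), and Mcpt4 was listed at 0 in every library. Of its leading genes, Mcpt8 was at 99.9 ± 7.48 FPKM with cisplatin and 32.7 ± 2.06 FPKM with PBS, and Prg2 at 34.6 ± 2.69 and 63.4 ± 3.56 FPKM (SD, 3 libraries each). Of 5 sex-linked genes, Xist was called lower, and all 4 Y-linked genes were higher at the adjusted p alone, of which 1 was called. These marker lists moved with the groups in the same libraries as the ligands, and their part in the ligand results was not tested.

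How the ligands compared therefore depended on what the libraries were scaled to. Scaled by 4 Y-linked genes, the median log2 fold change of all tested genes moved to -0.83, and scaled by 8 macrophage markers, a scaling added with the data in view, to -0.79. Ccl6 was at 1.53 and 1.58 under these scalings and Ccl12 at 1.12 and 1.17, all called higher, and Ccl5 at -2.56 and -2.52, called lower. Ccl9, at 0.385 and 0.44, was above the median of all genes but no longer called. Ccl3 (-1.315 and -1.26) and Ccl2 (-1.15 and -1.10) were then called lower. The signs of Ccl7 (-0.32 and -0.27) and Ccl4 (-0.90 and -0.85) turned.

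**Figure D5:**
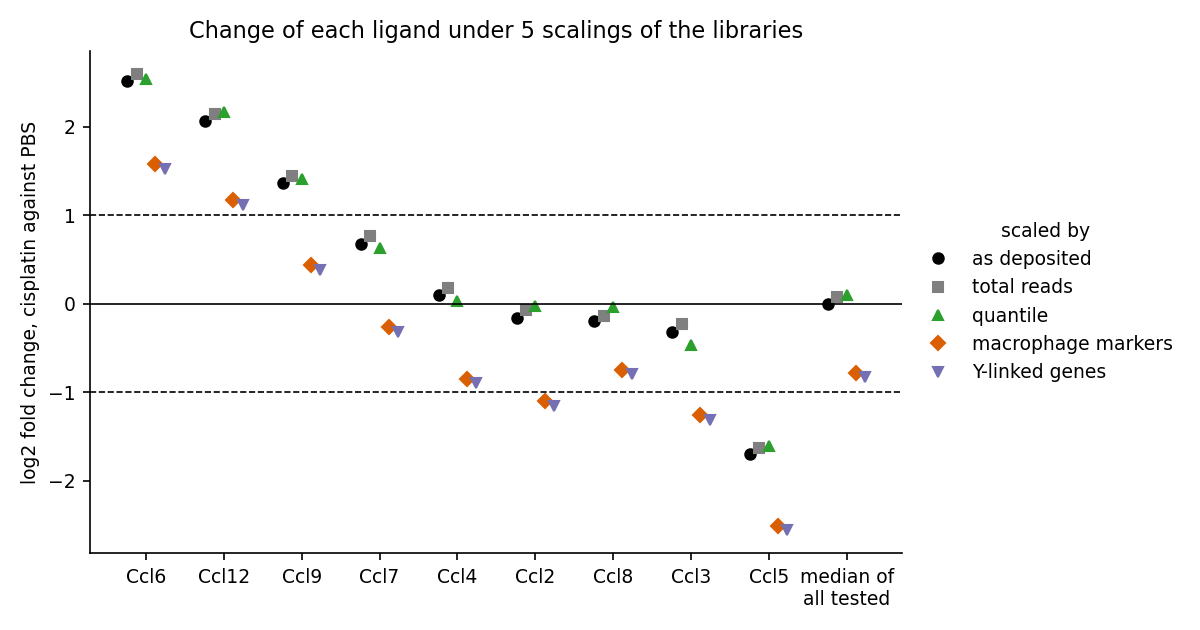
Log2 fold change (cisplatin against PBS) of the 9 tested ligands, and the median of all tested genes, with the libraries as deposited and scaled by total reads, by quantiles, by macrophage markers and by Y-linked genes; dashed lines mark the threshold of 1 in either direction. The scalings by macrophage markers and Y-linked genes lower every value, and Ccl6 and Ccl12 stay above 1 under all 5.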

How the data were processed

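RNA was measured in 6 libraries, poly-T selected and sequenced. The groups of 3 libraries were taken from the treatment labels. The authors deposited FPKM per gene. The submitters' processing notes name fastp, HISAT2 2.0.5, featureCounts 1.5.0-p3 and mm10, whereas the methods of the study name LifeScope and DESeq2, and whether strand was used is not given in the sources used here. Reads recovered from FPKM and gene length were whole, within 0.01, for 100% of values under 200 reads, and summed to 15776238 to 17924686 per library, so that counting error is large only for ligands with few reads.

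Genes at 1 FPKM or more in at least 3 libraries were transformed to log2(FPKM + 1), which understates changes of low genes, and fitted with limma 3.58.1 (R 4.3.3, eBayes with a trend, Benjamini-Hochberg adjustment over all genes tested). The fold change threshold of 2 is that of the study. The fit was tested on simulated data. Shares and ratios were taken within libraries, and single values were compared by exact permutation tests in scipy 1.17.1. All 10 ligands, their main receptors and the 2 called genes with the largest rise and the 2 with the largest fall in each related list were named, as were the 2 most abundant markers of each list and markers at 0. Some single-gene results of this rule are not reported here. The ligands, lists and tests were chosen with earlier results of these data known. Alternatives covered pseudocount, filter, scaling, variance model, gene length, gene class, call rule, recovered reads, the replicate block and each library left out.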

Additional observations from a re-analysis of the deposited data

How the results depend on the processing

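Across 21 alternatives Ccl6 (1.53 to 2.63), Ccl12 (1.12 to 2.25) and Ccl5 (-2.56 to -1.61) kept their direction and their call. Scaling by Y-linked genes or by macrophage markers, the latter chosen after the data were seen, reversed Ccl7 (-0.32 and -0.27) and Ccl4 (-0.90 and -0.85), ended the call of Ccl9 (0.385 and 0.44), gave 3 ligands called lower under each, and turned the difference in the summed FPKM of the 10 ligands from 148 to -1425 and -1336. All genes called higher then numbered 85 and 89 (628 in the main analysis), those called lower 5181 and 4827 (1514), related genes called lower 19 and 18 (7), and related genes called higher 4 and 4 (6). At the adjusted p alone 3 ligands were lower, 4424 genes were higher and 4721 lower, and 20 related genes were higher (6) and 17 lower. With limma treat 240 genes were higher and 982 lower, with a pseudocount of 0.1 973 were higher, and with voom on recovered reads 1227 were higher. Shares in recovered reads, which are not per length, differed by -7.64 percentage points for Ccl2, 2.58 for Ccl7, 0.678 for Ccl12, -15.4 for Ccl3, -0.962 for Ccl4, -0.600 for Ccl5, 15.8 for Ccl6 and 5.46 for Ccl9, against -3.66, 4.60, 1.35, -13.1, -0.0013, -0.539, 9.32 and 2.03 in FPKM. The cause of these shifts was not tested, apart from the weight of gene length in read shares.

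With each library left out, 3 ligands were higher and 1 lower in every case, 5 to 7 related genes were higher and 6 to 7 lower, and the summed FPKM differed by 111.8 to 180.3. Ccl8 ranged from -0.36 to 0.087, reversed without cisplatin replicate 2, as did its share (0.0013 percentage points, range -0.0273 to 0.0013). The share of Ccl4 ranged from -0.185 to 0.173 percentage points. It reversed to 0.173 and 0.0080 without cisplatin replicates 2 and 3 and to 0.0468 and 0.0882 without PBS replicates 2 and 3. Same-numbered libraries did not deviate together (correlations of -0.104, -0.0857 and -0.0235), which does not tell whether they share a culture or an animal. With the replicate block 3 ligands were higher and 1 lower, 625 and 1515 of all genes were called higher and lower, and the adjusted p of Ccl2 was 0.0518. Ccl8 and Ccl24, with at most 17 reads in a library, are limited by depth.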
